A study of Homo sapiens with 12 samples.

Results

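The genes of the proteasome and its assembly factors were followed in a pair of human T-cell acute lymphoblastic leukaemia lines, HPB-ALL and KOPT-K1, exposed to SAHM1. A gene was included where an array probe set carried exactly 1 annotated symbol and that symbol began with PSMA, PSMB, PSMC, PSMD, PSME, PSMF or PSMG followed by a digit. This rule found 50 symbols on 97 probe sets, of 19775 gene symbols on the array. Of these, 42 were proteasome genes on 81 probe sets, and 8 only shared the start of the name (antisense and divergent transcripts, and proteins named for a partner) and were counted apart. The 42 comprised 13 genes of the 20S core particle, 14 of the 19S cap, 4 of the immunoproteasome and the activator PA28, 7 assembly factors, 3 other activators and inhibitors and the tissue-specific core gene PSMA8. PSMA6, PSMB11, PSMC5, PSMD7, PSMD13 and PSME2 had no probe set with 1 symbol of their own and were not analysed here.

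SAHM1 is a hydrocarbon-stapled peptide made from mastermind-like 1 that binds the NOTCH transcription complex in place of the coactivator, and both lines carry activated NOTCH1. The groups were HPB-ALL with SAHM1, HPB-ALL with DMSO, KOPT-K1 with SAHM1 and KOPT-K1 with DMSO, with 3 arrays each. SAHM1 was given at 20 µM, and DMSO as the matching amount of vehicle, for 24 hours. The 3 arrays of a group were numbered replicates of 1 cell line. The tests below therefore measure the spread between replicates within a line and not between patients. Each deposited value was a linear ratio to the mean of the DMSO arrays of the same line. It is given here as log2, so a DMSO group lies around 0 by construction, 1 unit is a doubling, and the level of a gene and the level of the lines at baseline cannot be read.

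The proteasome degrades proteins that carry ubiquitin chains. Its 20S core is a barrel of stacked alpha and beta rings with the proteolytic sites inside, and the 19S cap recognises, unfolds and feeds in the substrate, using a ring of AAA ATPases. Lymphoid cells can replace the catalytic beta subunits by immunoproteasome subunits, which alters the peptides presented on class I molecules. Dedicated chaperones assemble the particle, other activators can bind the core in place of the cap, and the transcription factor NFE2L1 (NRF1) is known to raise proteasome genes together when proteasome activity falls short.

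As a check of the treatment, the NOTCH targets HES1, HES4, DTX1 and MYC fell in both lines. Their log2 differences, SAHM1 minus DMSO, were -0.59, -1.24, -1.30 and -0.65 in HPB-ALL and -0.69, -1.24, -0.86 and -0.69 in KOPT-K1. Some control probe sets also separated the groups. The mean log2 ratio of 3 probe sets for 18S ribosomal RNA was 1.35 to 1.89 on the HPB-ALL SAHM1 arrays and -1.65 to 1.05 on the HPB-ALL DMSO arrays, and the 18 probe sets for hybridization spike controls were at 0.60 to 1.05 on the KOPT-K1 SAHM1 arrays and -0.018 to 0.0086 on the KOPT-K1 DMSO arrays. The difference between 5′ and 3′ probe sets of ACTB, a sign of RNA quality, separated the groups in both lines: it was at -0.41 to -0.086 with SAHM1 and -0.030 to 0.049 with DMSO in HPB-ALL, and at -0.22 to -0.091 with SAHM1 and -0.0091 to 0.010 with DMSO in KOPT-K1. The same difference for GAPDH overlapped in both lines. The part of ACTB in the results was not tested. Calls below come from the fit without these levels, and the fit with the 18S level (HPB-ALL) or the spike level (KOPT-K1) as a covariate is given beside the called members that it moved past the threshold. Of 10 T-lineage marker genes, 1 rose and 3 fell in HPB-ALL and 1 fell in KOPT-K1. Over all genes, 4.96% rose and 4.38% fell in HPB-ALL, and 5.85% rose and 13.2% fell in KOPT-K1. Of the 7 measured markers of other blood cells, none was called in HPB-ALL, and MS4A1, a B-cell surface protein, rose in KOPT-K1 by 0.32 ± 0.067. On a ratio scale these markers show changes only, not whether a line expresses them, so the labelled cell type could not be checked by level.

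With SAHM1, proteasome genes fell in HPB-ALL and moved both ways in KOPT-K1. In HPB-ALL, 10 of the 42 genes fell and none rose, whereas in KOPT-K1 4 rose and 2 fell. Here a gene was called where the Benjamini-Hochberg adjusted p of limma, computed over all 19775 genes, was under 0.05. In HPB-ALL 23.8% of the proteasome genes fell and none rose, beside 4.38% and 4.96% of all genes, and 9.34% of all genes were called in either direction. In KOPT-K1 9.52% of the proteasome genes rose and 4.76% fell, beside 5.85% and 13.2% of all genes. The share called in either direction there, 14.3%, lay below the 19% of all genes. The median log2 difference of the 42 genes was -0.092 in HPB-ALL and 0.049 in KOPT-K1, beside -0.021 and 2.0e-05 over all genes. The changes were small: they ran from -0.52 to 0.17 in HPB-ALL and from -0.44 to 0.38 in KOPT-K1. At an unadjusted p under 0.05, 17 proteasome genes passed in HPB-ALL and 14 in KOPT-K1.

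In HPB-ALL all 3 SAHM1 arrays lay below all 3 DMSO arrays for 21 of the 42 genes, beside 15.7% of all genes, and above them for 1 gene, PSMG2, beside 13.4% of all genes. In KOPT-K1 the SAHM1 arrays lay above the DMSO arrays for 13 genes (31.0%, beside 13.5% of all genes) and below them for 12 (28.6%, beside 21.6%). Thus the HPB-ALL shift was on 1 side over the set, and the KOPT-K1 arrays separated in both directions. In only 1 of the 42 genes, PSME3, was a change called in both lines, and it was a fall in each. That is 2.38% of the genes, beside 3.57% of all genes called in both lines and 1.28% called lower in both. No proteasome gene was called higher in both lines (0.202% of all genes) or with opposite signs (2.09%), and 15 were called in at least 1 line, beside 24.8% of all genes. Tested as single probe sets, 8 of the 81 passed in HPB-ALL (5.15% of all probe sets), 15 in KOPT-K1 (14.6%), 8 for the mean of both lines (7.62%) and 13 for the difference between them (11.7%).

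**Figure D1:**
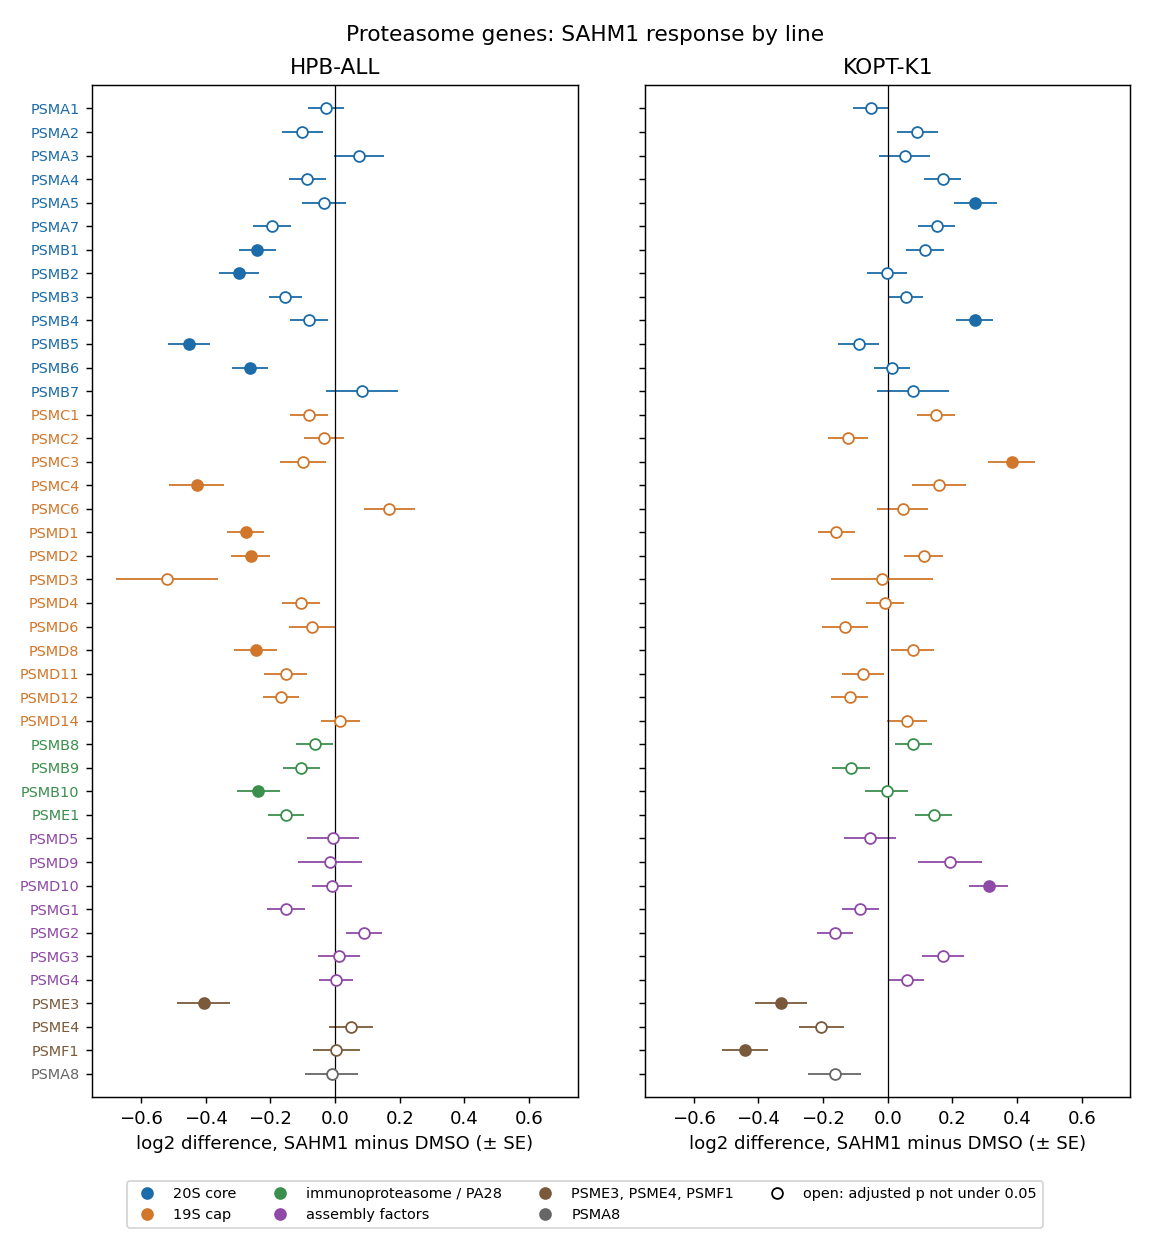
Log2 difference, SAHM1 minus DMSO, of each of the 42 proteasome genes (horizontal axis) in HPB-ALL (left) and KOPT-K1 (right), with genes grouped down the page by class, standard errors as bars and called genes as filled symbols. In HPB-ALL 10 genes are filled, all below 0, and in KOPT-K1 4 are filled above 0 and 2 below.

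The promoters of 7 called genes are shown so that the motifs of those that fell in HPB-ALL and those that rose in KOPT-K1 can be compared. Each is the 250 bases before a RefSeq gene start (for PSMB5, which has more than 1 listed start, the last one listed), on GRCh38.p14, 5′ to 3′ on the strand of the gene, with motif matches on either strand in capitals.
PSMB5 (chr14:23034901-23035150, minus strand): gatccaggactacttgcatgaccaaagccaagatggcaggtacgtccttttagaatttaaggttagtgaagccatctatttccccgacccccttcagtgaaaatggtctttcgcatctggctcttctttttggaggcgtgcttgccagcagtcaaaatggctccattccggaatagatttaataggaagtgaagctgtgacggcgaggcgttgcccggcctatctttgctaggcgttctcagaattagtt
PSMC4 (chr19:39970915-39971164, plus strand): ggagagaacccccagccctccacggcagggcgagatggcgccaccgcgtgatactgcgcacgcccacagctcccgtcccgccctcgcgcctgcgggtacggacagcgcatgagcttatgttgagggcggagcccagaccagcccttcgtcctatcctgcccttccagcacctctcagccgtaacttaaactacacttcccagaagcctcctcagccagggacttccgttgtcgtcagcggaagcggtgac
PSME3 (chr17:42833147-42833396, plus strand): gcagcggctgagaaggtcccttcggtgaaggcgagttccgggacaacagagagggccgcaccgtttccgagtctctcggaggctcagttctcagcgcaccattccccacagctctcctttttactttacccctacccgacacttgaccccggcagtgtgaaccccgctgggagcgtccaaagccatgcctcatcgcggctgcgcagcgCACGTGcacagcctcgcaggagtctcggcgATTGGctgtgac
PSMC3 (chr11:47426440-47426689, minus strand): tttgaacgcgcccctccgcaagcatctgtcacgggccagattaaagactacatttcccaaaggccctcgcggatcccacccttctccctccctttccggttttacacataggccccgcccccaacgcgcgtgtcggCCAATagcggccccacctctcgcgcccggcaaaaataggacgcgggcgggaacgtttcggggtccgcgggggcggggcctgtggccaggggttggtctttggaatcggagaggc
PSMD10 (chrX:108091543-108091792, minus strand): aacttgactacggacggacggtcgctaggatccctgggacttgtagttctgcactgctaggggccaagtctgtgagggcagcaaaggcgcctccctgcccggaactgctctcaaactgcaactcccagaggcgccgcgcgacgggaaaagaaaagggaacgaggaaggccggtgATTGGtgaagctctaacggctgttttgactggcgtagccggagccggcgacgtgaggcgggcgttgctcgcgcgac
PSMA5 (chr1:109426449-109426698, minus strand): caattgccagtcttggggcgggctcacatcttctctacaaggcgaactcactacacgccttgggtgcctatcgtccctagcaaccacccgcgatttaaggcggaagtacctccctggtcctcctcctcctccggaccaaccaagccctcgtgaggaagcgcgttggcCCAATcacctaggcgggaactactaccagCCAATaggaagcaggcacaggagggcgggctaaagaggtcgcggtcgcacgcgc
PSMB4 (chr1:151399323-151399572, plus strand): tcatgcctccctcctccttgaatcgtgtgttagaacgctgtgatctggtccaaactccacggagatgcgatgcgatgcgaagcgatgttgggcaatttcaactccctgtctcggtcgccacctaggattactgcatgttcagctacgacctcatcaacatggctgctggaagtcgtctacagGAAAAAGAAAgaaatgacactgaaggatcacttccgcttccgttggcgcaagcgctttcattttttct
The motifs searched were TGACNNNGC, the core of the antioxidant response element that NFE2L1 binds, CACGTG, an E-box that MYC can bind, CCAAT, and an interferon-stimulated response element written as GAAA, any 2 bases and GAAA again. The first 3 genes had the smallest p of the 10 that fell in HPB-ALL (PSME3 fell in both lines). The other 4 are all those that rose in KOPT-K1. PSMB5 and PSMC4 had no match in the 250 bases printed. PSME3 carried CACGTG 42 bases before its start and a CCAAT match at 12 bases. PSMC3, PSMD10 and PSMA5 each carried CCAAT, at 114, 76 and, for PSMA5, 83 and 54 bases, and PSMB4 carried the interferon-stimulated element at 68 bases.

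Across members, windows of 300 bases (250 before and 50 after the start) were found for 36 of the 42 genes and compared with those of 27305 genes, with 1 window for each gene, the last listed where there were several. TGACNNNGC stood in 12 of the 36 windows (33.3%, beside 13.4% of all genes). It was in 2 of the 8 windows of genes called lower in HPB-ALL (PSMC4, outside the bases printed, and PSMD1), in 10 of the 28 windows of genes not called there, and in 0 of the 4 of genes called higher in KOPT-K1. CCAAT stood in 16 windows (44.4%, beside 35.4%), among them 6 of the 9 of the 20S core. It was in 3 of the 8 windows of genes called lower in HPB-ALL (PSMB2, PSMD8 and PSME3). It was also in 13 of the 28 windows of genes not called there, and in 3 of the 4 windows of genes called higher in KOPT-K1. The interferon-stimulated element stood in 5 (13.9%, beside 3.72%), of which 3 belonged to the immunoproteasome and PA28 genes PSMB8, PSMB10 and PSME1. CACGTG stood in 3 (PSMB3, PSMD9 and PSME3; 8.33%, beside 7.19%). For 6 of the 36 genes other starts are listed too, and over all their windows PSMG2 also held TGACNNNGC, PSMB5 CCAAT and PSMA4 the interferon-stimulated element. A match is a run of letters in the window and does not show binding.

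Among the catalytic subunits of the 20S core, the chymotrypsin-like and caspase-like ones fell in HPB-ALL and no catalytic subunit was called in KOPT-K1. PSMB5, the chymotrypsin-like subunit and the main target of bortezomib, was at -0.48, -0.51 and -0.36 on the HPB-ALL SAHM1 arrays and at -0.030, -0.041 and 0.069 on the DMSO arrays. The groups lay far apart relative to their spread, and the log2 difference of -0.45 ± 0.064 (adjusted p = 0.00118), or -26.8%, had the smallest p of the members in HPB-ALL. The value after ± is the limma standard error throughout, with 3 arrays in each group. In KOPT-K1 PSMB5 was at -0.17, -0.044 and -0.055 with SAHM1 and -0.011, 0.041 and -0.031 with DMSO. Those groups did not overlap either, but the difference of -0.090 ± 0.064 (adjusted p = 0.36) did not pass. PSMB6, the caspase-like subunit, was at -0.31, -0.26 and -0.22 with SAHM1 and -0.021, 0.030 and -0.010 with DMSO in HPB-ALL, a difference of -0.26 ± 0.057 (adjusted p = 0.0123), and differed by 0.013 (adjusted p = 0.901) in KOPT-K1. PSMB7, the trypsin-like subunit, differed by 0.083 ± 0.11 (adjusted p = 0.739) in HPB-ALL and 0.079 ± 0.11 (adjusted p = 0.667) in KOPT-K1, with overlapping groups in both lines. With the 18S level as a covariate, PSMB5 was at -0.38 (adjusted p = 0.24) and PSMB6 at -0.23 (adjusted p = 0.551) in HPB-ALL.

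Of the 4 non-catalytic beta subunits measured, which shape the ring around the active sites, 2 fell in HPB-ALL and 1 rose in KOPT-K1. Over all genes, 4.38% fell in HPB-ALL and 5.85% rose in KOPT-K1. PSMB1 was at -0.29, -0.22 and -0.22 with SAHM1 and 0.029, 0.041 and -0.074 with DMSO in HPB-ALL, a difference of -0.24 ± 0.057 (adjusted p = 0.0208). In KOPT-K1 its difference was 0.12 (adjusted p = 0.184). PSMB2 was at -0.28, -0.28 and -0.37 with SAHM1 and 0.0036, 0.064 and -0.10 with DMSO in HPB-ALL. All SAHM1 arrays were lower, with a difference of -0.30 ± 0.062 (adjusted p = 0.0104), but its 4 probe sets ran from -0.54 to -0.13 and none passed alone. PSMB4 rose in KOPT-K1, with 0.25, 0.25 and 0.30 on SAHM1 arrays and -0.070, 0.025 and 0.042 on DMSO arrays, a difference of 0.27 ± 0.058 (adjusted p = 0.00689). Of its 3 probe sets 2 passed, and the third was at 0.063, so the size of the rise depended on the probe set. In HPB-ALL PSMB4 differed by -0.080 (adjusted p = 0.479). PSMB3 differed by -0.15 (adjusted p = 0.0925) in HPB-ALL and 0.056 (adjusted p = 0.498) in KOPT-K1. With the 18S level, PSMB1 was at -0.30 (adjusted p = 0.326) and PSMB2 at -0.36 (adjusted p = 0.249) in HPB-ALL, and with the spike level PSMB4 was at 0.27 (adjusted p = 0.101) in KOPT-K1.

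The alpha ring gates entry to the core. It held 0 called genes of 6 in HPB-ALL (beside 9.34% of all genes) and 1 in KOPT-K1 (16.7%, beside 19%). That gene, PSMA5, was at 0.27, 0.31 and 0.23 with SAHM1 and 0.072, -0.070 and -0.0062 with DMSO in KOPT-K1, a rise of 0.27 ± 0.067 (adjusted p = 0.014). Its 2 probe sets differed in size in KOPT-K1, at 0.14 and 0.41, with only the second passing. In HPB-ALL they took opposite signs, at -0.29 and 0.22, and the first passed (adjusted p = 0.0319, over all probe sets), which left the gene at -0.034 (adjusted p = 0.836). PSMA7 came nearest to a call in HPB-ALL, at -0.19 (adjusted p = 0.0539), and had a difference of 0.15 (adjusted p = 0.0879) in KOPT-K1, with groups that did not overlap in either line. Values for the other 4 alpha genes, PSMA1 to PSMA4, ran from -0.10 to 0.075 in HPB-ALL and from -0.051 to 0.17 in KOPT-K1. The testis-enriched alpha subunit PSMA8 differed by -0.0095 in HPB-ALL and -0.16 in KOPT-K1, and was not called.

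**Figure D2:**
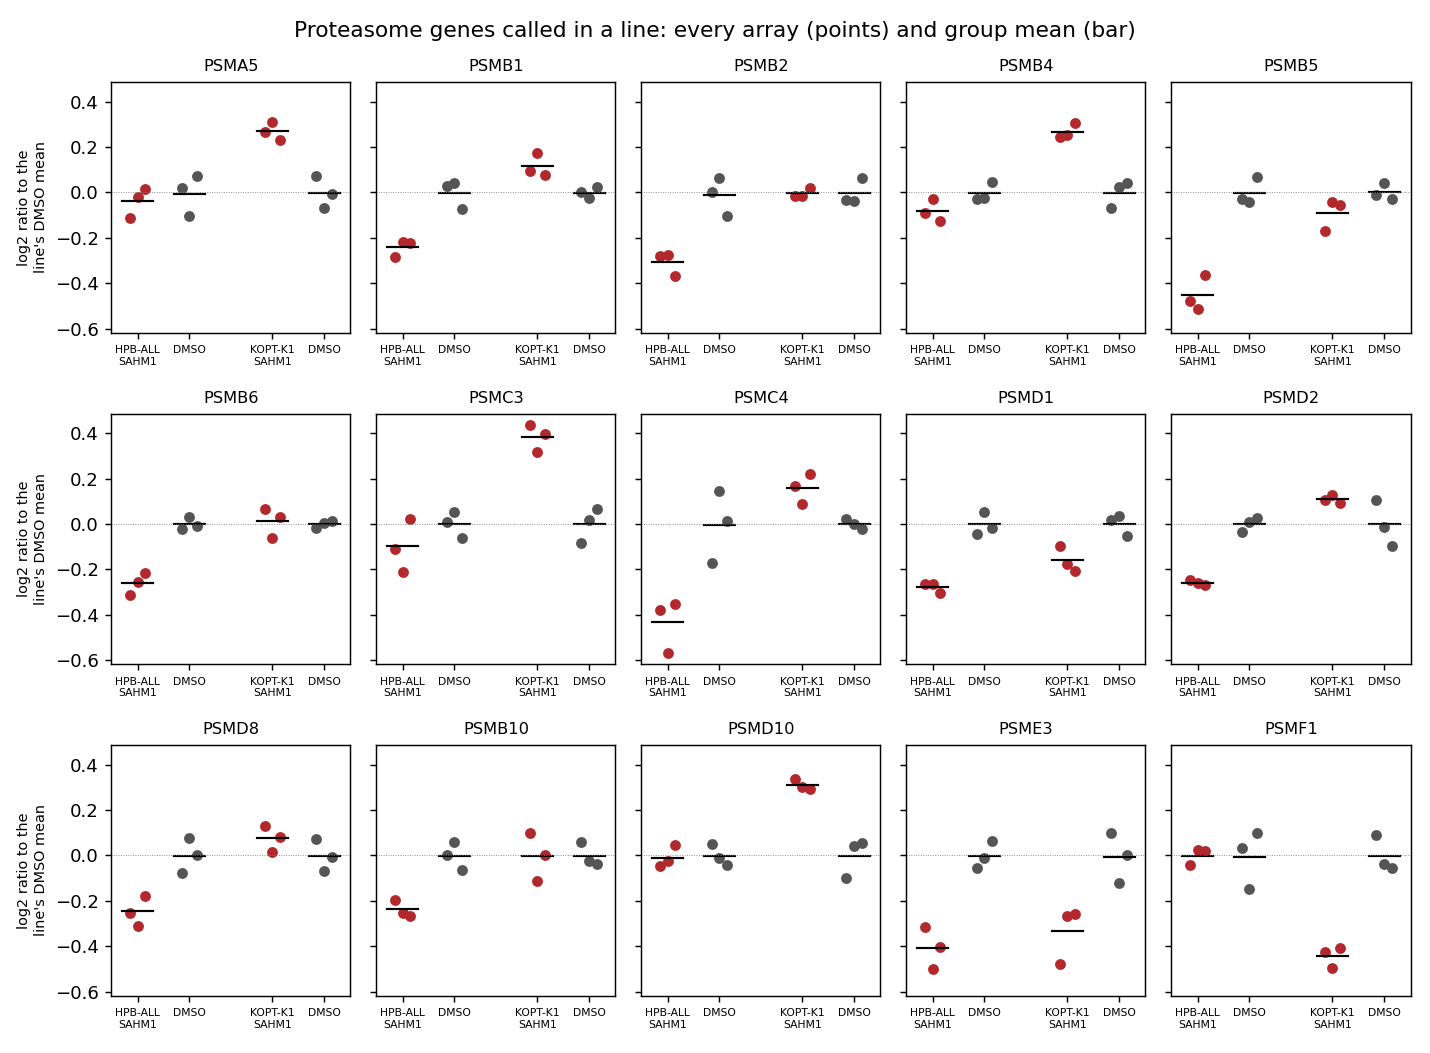
Log2 ratio to the mean DMSO array of the same line (vertical axis) for 15 proteasome genes called in a line, with 1 point for each of the 3 arrays of every group and a line at each group mean. In the PSMB5 panel the HPB-ALL SAHM1 arrays lie at -0.51 to -0.36, below their DMSO arrays, and in the PSMF1 panel it is the KOPT-K1 SAHM1 arrays that lie low, at -0.50 to -0.41.

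In the ATPase ring of the 19S cap, PSMC4 fell in HPB-ALL and PSMC3 rose in KOPT-K1. Both encode AAA ATPases of the ring that unfolds substrates. PSMC4 was at -0.38, -0.57 and -0.35 with SAHM1 and -0.17, 0.14 and 0.012 with DMSO in HPB-ALL. Every SAHM1 array was the lower, with a difference of -0.43 ± 0.084 (adjusted p = 0.0075), although the first DMSO array lay well below the other two. In KOPT-K1 the same gene was at 0.17, 0.089 and 0.22 with SAHM1 and 0.022, 0.00053 and -0.023 with DMSO, a difference of 0.16 ± 0.084 (adjusted p = 0.209) that did not pass. PSMC3 showed the converse order of calls: it was at 0.44, 0.32 and 0.39 with SAHM1 and -0.085, 0.017 and 0.064 with DMSO in KOPT-K1. This rise of 0.38 ± 0.072 (adjusted p = 0.00322), or 30.4%, was the largest among the KOPT-K1 members. In HPB-ALL PSMC3 was at -0.11, -0.21 and 0.021 with SAHM1 and 0.0066, 0.052 and -0.061 with DMSO, with overlapping groups and a difference of -0.10 (adjusted p = 0.486). PSMC1, PSMC2 and PSMC6 were called in neither line. With the 18S level PSMC4 was at -0.21 (adjusted p = 0.749) in HPB-ALL, and with the spike level PSMC3 was at 0.37 (adjusted p = 0.0814) in KOPT-K1.

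Of 9 non-ATPase cap subunits, 3 fell in HPB-ALL (33.3%, beside 4.38% of all genes). None was called in KOPT-K1, beside 19% of all genes. PSMD1, a scaffold of the base of the cap, was at -0.26, -0.27 and -0.30 with SAHM1 and -0.042, 0.054 and -0.017 with DMSO in HPB-ALL, a difference of -0.28 ± 0.057 (adjusted p = 0.0101). Its KOPT-K1 difference of -0.16 (adjusted p = 0.0715) was also negative and did not pass. Of its 2 probe sets, at -0.29 and -0.025 in KOPT-K1, 1 passed there alone. PSMD2, the other large scaffold of the base, which docks ubiquitin receptors, was at -0.25, -0.26 and -0.27 with SAHM1 and -0.035, 0.0081 and 0.026 with DMSO in HPB-ALL. The SAHM1 arrays were close together, and the difference was -0.26 ± 0.060 (adjusted p = 0.018). PSMD8, a subunit of the lid, fell by 0.25 ± 0.066 on the log2 scale in HPB-ALL (adjusted p = 0.0356), with -0.25, -0.31 and -0.18 on SAHM1 arrays and -0.079, 0.075 and 0.00015 on DMSO arrays. The lid subunit PSMD3 had the most negative HPB-ALL value of all members, -0.52 ± 0.16 (adjusted p = 0.0582), and did not pass: it was at -0.37, -0.93 and -0.27 with SAHM1 and -0.21, 0.15 and 0.044 with DMSO. Its second SAHM1 array stood apart from the others. PSMD3 passed when HPB-ALL DMSO array 1 (adjusted p = 0.0398) or HPB-ALL SAHM1 array 3 (adjusted p = 0.0416) was left out. It also passed without KOPT-K1 SAHM1 array 3 (adjusted p = 0.0464). The ubiquitin receptor PSMD4 differed by -0.11 in HPB-ALL and -0.0075 in KOPT-K1, and the deubiquitinase PSMD14 by 0.017 and 0.059. With the 18S level, the HPB-ALL values were -0.23 (adjusted p = 0.545) for PSMD1, -0.20 (adjusted p = 0.684) for PSMD2 and -0.13 (adjusted p = 0.878) for PSMD8.

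In the immunoproteasome and PA28, 1 of 4 genes fell in HPB-ALL (25%, beside 4.38% of all genes). None was called in KOPT-K1, beside 19% of all genes. PSMB10, which takes the place of PSMB7 in the immunoproteasome, was at -0.19, -0.25 and -0.27 with SAHM1 and 0.0034, 0.057 and -0.063 with DMSO in HPB-ALL. It was the 1 called gene of this class, at -0.24 ± 0.067 (adjusted p = 0.0421). It lost the call when any 1 of the 6 HPB-ALL arrays, KOPT-K1 DMSO array 2 or 3, or KOPT-K1 SAHM1 array 3 was left out, with an adjusted p of up to 0.15, and with the 18S level it was at -0.24 (adjusted p = 0.626). PSMB8, the counterpart of PSMB5, differed by -0.063 ± 0.058 (adjusted p = 0.599) in HPB-ALL and 0.079 ± 0.058 (adjusted p = 0.374) in KOPT-K1. PSMB9, the counterpart of PSMB6, differed by -0.10 (adjusted p = 0.345) in HPB-ALL and -0.11 (adjusted p = 0.196) in KOPT-K1. PSME1, a subunit of the interferon-inducible activator PA28, differed by -0.15 (adjusted p = 0.123) in HPB-ALL and 0.14 (adjusted p = 0.097) in KOPT-K1. All 4 genes had every HPB-ALL SAHM1 array below every DMSO array, beside 15.7% of all genes, although only PSMB10 passed.

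Of the proteins that bind the core without being part of it, PSME3 fell in both lines and PSMF1 in KOPT-K1. PSME3, the nuclear activator PA28-gamma, was at -0.31, -0.50 and -0.41 with SAHM1 and -0.055, -0.012 and 0.064 with DMSO in HPB-ALL. In KOPT-K1 it was at -0.48, -0.27 and -0.26 with SAHM1 and 0.10, -0.12 and 0.0040 with DMSO. SAHM1 arrays were lower in both lines without overlap, with differences of -0.41 ± 0.081 (adjusted p = 0.00823) in HPB-ALL and -0.33 ± 0.081 (adjusted p = 0.0142) in KOPT-K1, and 3 of its 4 probe sets passed in each line. The mean over both lines was -0.37 ± 0.057 (adjusted p = 0.00158), and the KOPT-K1 call was lost without KOPT-K1 DMSO array 1 (-0.28, adjusted p = 0.0607). PSME3 was at -0.32 (adjusted p = 0.557) in HPB-ALL with the 18S level and at -0.37 (adjusted p = 0.114) in KOPT-K1 with the spike level.

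PSMF1, known as the inhibitor PI31, was at -0.42, -0.50 and -0.41 with SAHM1 and 0.088, -0.037 and -0.057 with DMSO in KOPT-K1. This was the most negative KOPT-K1 value among the 42 genes, -0.44 ± 0.072 (adjusted p = 0.00147), or -26.3%, and all 4 probe sets passed, from -0.67 to -0.30. With the spike level it was at -0.30 (adjusted p = 0.0931). In HPB-ALL PSMF1 was at -0.042, 0.022 and 0.018 with SAHM1 and 0.032, -0.15 and 0.10 with DMSO. The groups overlapped there and the difference was 0.0047 (adjusted p = 0.98). The third gene of this class, the activator PSME4 (PA200), differed by 0.049 (adjusted p = 0.755) in HPB-ALL and -0.20 (adjusted p = 0.0543) in KOPT-K1.

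Of the 7 assembly factors, only PSMD10 was called in a line, beside 24.8% of all genes called in at least 1 line. PSMD10 (gankyrin) is a chaperone of the ATPase ring that also binds the retinoblastoma protein. It was at 0.34, 0.30 and 0.29 with SAHM1 and -0.10, 0.040 and 0.055 with DMSO in KOPT-K1, and both of its probe sets passed. The difference was 0.31 ± 0.061 (adjusted p = 0.00404), and 0.35 (adjusted p = 0.057) with the spike level. In HPB-ALL PSMD10 was at -0.048, -0.026 and 0.045 with SAHM1 and 0.050, -0.0095 and -0.043 with DMSO, a difference of -0.0088 (adjusted p = 0.957). The other chaperones of the base, PSMD5 and PSMD9, and the alpha-ring chaperones PSMG1, PSMG2, PSMG3 and PSMG4 ran from -0.15 to 0.089 in HPB-ALL and from -0.16 to 0.19 in KOPT-K1.

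The HPB-ALL count leaned on single arrays. Leaving out 1 array at a time, it was 5 without SAHM1 array 1, 6 without SAHM1 array 2 and 6 without DMSO array 2, and 7 to 10 without any other array. The counts include PSMD3 in the fits where it passed. PSMB2, PSMB5, PSMC4, PSMD1 and PSME3 were called in all 12 such fits. PSMB6 was lost without HPB-ALL SAHM1 array 1, and PSMB1, PSMD2 and PSMD8 each without any 1 of the 3 HPB-ALL SAHM1 arrays and some DMSO arrays of that line (arrays 1 and 2 for PSMB1, arrays 2 and 3 for the other two). In KOPT-K1, PSMB4, PSMC3, PSMD10 and PSMF1 were called in all 12. PSMA5 was lost without KOPT-K1 DMSO array 2, at 0.24 (adjusted p = 0.0596).

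The 18S level moved with the HPB-ALL result. With it as a covariate, none of the 42 genes was called in HPB-ALL (52 of 19775 genes overall), and the median standard error over all genes grew to 0.14, beside 0.085 without it. All 10 genes kept a negative value in that fit, and 35 of the 42 were below 0. The 6 KOPT-K1 calls were kept. The spike level moved with the KOPT-K1 result: with it as a covariate, 1 of the 6 KOPT-K1 calls was kept (PSMA5) and all 6 kept their sign. In HPB-ALL 6 of the 10 calls were kept with the spike level. With the deposited ratios quantile-normalised over the arrays, PSMB5 in HPB-ALL was the 1 call left in either line, at -0.44 ± 0.069 (adjusted p = 0.00696).

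**Figure D3:**
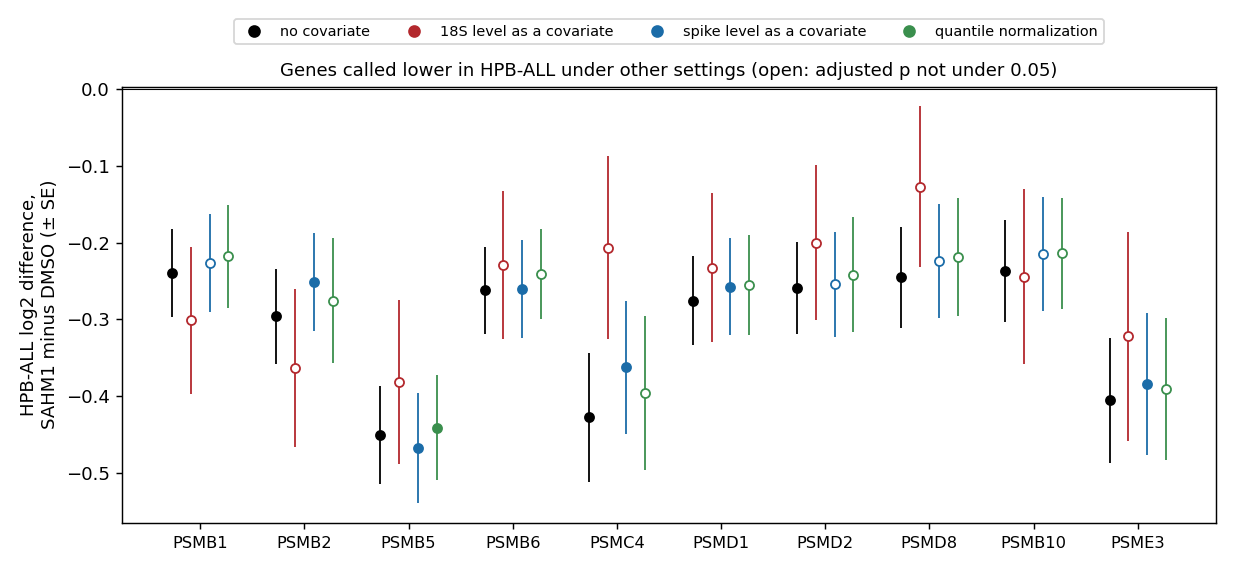
Log2 difference, SAHM1 minus DMSO, in HPB-ALL (vertical axis, with the standard error as a bar) of the 10 genes called lower there, without a covariate, with the 18S level, with the spike level and after quantile normalisation. Filled symbols passed the test; every value shown lies below 0, none of those with the 18S level passed, and PSMB5 alone passed after quantile normalisation.

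The responses of the lines were then set against each other, as the HPB-ALL difference minus the KOPT-K1 difference. This difference passed for 16 of the 42 genes (38.1%, beside 16.8% of all genes). It was negative, with a lower response in HPB-ALL, for 14 of them (33.3%, beside 5.41% of all genes) and positive for 2 (4.76%, beside 11.4%). The 20S core held 8 of the 14: PSMA4, PSMA5, PSMA7, PSMB1, PSMB2, PSMB4, PSMB5 and PSMB6. The median over all 42 genes was -0.15, beside -0.028 over all genes. The contrast is built from each line's own difference, so it inherits both the 18S levels of HPB-ALL and the spike levels of KOPT-K1, and with either as a covariate no member passed.

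PSMC4 had the largest difference between lines among the 42 genes, -0.59 ± 0.12 (adjusted p = 0.00565), and PSMC3 the next among those that passed, -0.48 ± 0.10 (adjusted p = 0.00709). PSMD3 lay between them at -0.50 ± 0.22 (adjusted p = 0.146) and did not pass. In PSMC4 and PSMC3, the value was negative in HPB-ALL and positive in KOPT-K1, but only 1 line's own change passed. PSMF1, with its fall in KOPT-K1, differed by 0.45 ± 0.10 (adjusted p = 0.0109) in the opposite direction. PSMB5 differed by -0.36 ± 0.091 (adjusted p = 0.0174). PSMA7 and PSME1, called in neither line, differed between the lines by -0.35 (adjusted p = 0.0129) and -0.29 (adjusted p = 0.0247). For PSME3 the difference between lines was -0.077 (adjusted p = 0.697). In the 12 fits that each left out 1 array, between 8 and 13 members passed. The count was 8 without HPB-ALL SAHM1 array 1 or 2, 9 without KOPT-K1 DMSO array 2, and 10 without KOPT-K1 DMSO array 3, HPB-ALL DMSO array 3 or KOPT-K1 SAHM1 array 1 or 3. PSMA7, PSMB1, PSMB4, PSMB5, PSMC3, PSMC4, PSMD2 and PSMF1 passed in all 12.

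**Figure D4:**
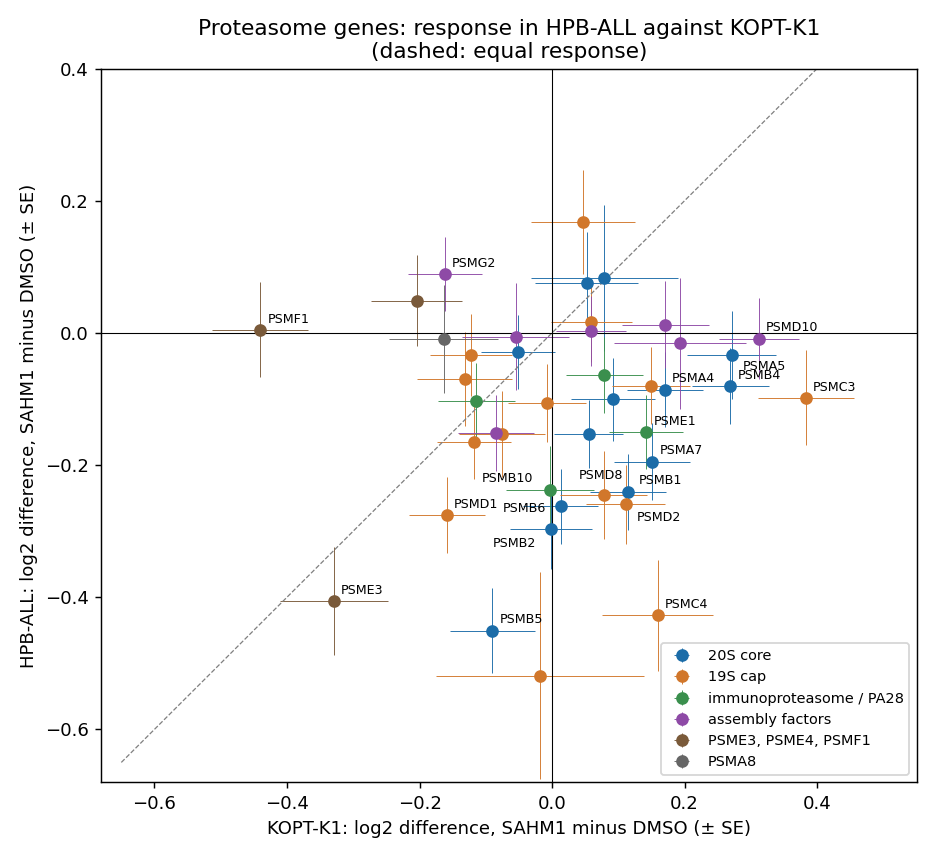
Log2 difference, SAHM1 minus DMSO, in HPB-ALL (vertical axis) against KOPT-K1 (horizontal axis), with 1 point for each of the 42 proteasome genes and colours by class. PSME3 lies low on both axes, PSMC3 and PSMD10 lie to the right near 0 in HPB-ALL, PSMF1 lies to the left near 0 in HPB-ALL, and PSMB5 and PSMC4 lie low.

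The mean of the 2 within-line differences passed for 7 of the 42 genes (16.7%, beside 11.3% of all genes): PSMD10 rose (3.16% of all genes did) and PSMB2, PSMB5, PSMD1, PSMD12, PSME3 and PSMF1 fell (8.13% of all genes did). A mean can pass on the change of 1 line. PSMD10 and PSMF1 differed by 0.31 and -0.44 in KOPT-K1, beside -0.0088 and 0.0047 in HPB-ALL. PSMB2 differed by -0.30 in HPB-ALL, beside -0.0017 in KOPT-K1. Only PSME3 was called in each line. The lid subunit PSMD12 was called in this contrast alone, at -0.14 ± 0.040 (adjusted p = 0.0363). PSMB5, PSMD1, PSME3 and PSMF1 passed in all 12 fits with 1 array left out. PSMB2, PSMD10 and PSMD12 were each lost in 9 or more of them.

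Taken by class, the core, the cap, and the immunoproteasome and PA28 genes of HPB-ALL had lower medians on every SAHM1 array than on any DMSO array. The median log2 ratio of the 13 core genes was -0.17, -0.076 and -0.11 on HPB-ALL SAHM1 arrays and 0.020, -0.0089 and -0.0050 on DMSO arrays. That of the 14 cap genes was -0.16, -0.14 and -0.11 with SAHM1 and -0.0094, 0.035 and -0.0021 with DMSO. The 4 immunoproteasome and PA28 genes had medians of -0.18, -0.13 and -0.084 with SAHM1 and 0.0077, -0.0075 and -0.0085 with DMSO. In KOPT-K1 the core median was 0.10, 0.012 and 0.077 with SAHM1 and -0.017, -0.0053 and 0.025 with DMSO, and the second SAHM1 array lay within the DMSO values. The 7 assembly factors had medians of -0.039, -0.026 and 0.034 with SAHM1 and 0.0056, -0.025 and 0.019 with DMSO in HPB-ALL, which overlapped. PSME3, PSME4 and PSMF1 had a median of -0.42, -0.28 and -0.26 on KOPT-K1 SAHM1 arrays and 0.088, -0.041 and -0.042 on DMSO arrays, the widest separation of a class in that line. Medians over all 19775 genes stayed between -0.026 and 0.0040 on every array.

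**Figure D5:**
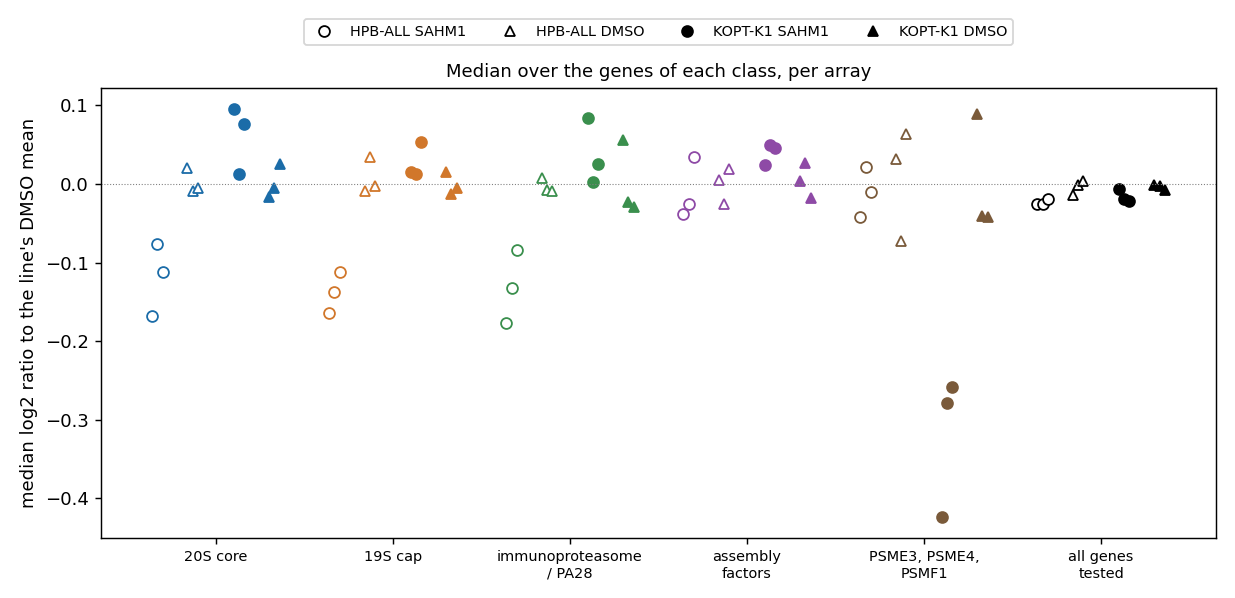
Median log2 ratio to the DMSO mean (vertical axis) of the genes of each class on each of the 12 arrays, by line and treatment. The HPB-ALL SAHM1 arrays lie below the HPB-ALL DMSO arrays for the 20S core, the 19S cap, and the immunoproteasome and PA28, and the KOPT-K1 SAHM1 arrays lie at -0.42 to -0.26 for PSME3, PSME4 and PSMF1.

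Of 18 genes for proteasome partners, 2 rose and none fell in HPB-ALL, and none rose and 7 fell in KOPT-K1. In HPB-ALL these shares were 11.1% higher and 0% lower, beside 4.96% and 4.38% of all genes. In KOPT-K1 they were 0% and 38.9%, beside 5.85% and 13.2%. The falls in KOPT-K1 included the substrate shuttles UBQLN2 (-0.47 ± 0.086, adjusted p = 0.00283), UBQLN1 (-0.25 ± 0.054, adjusted p = 0.00737) and RAD23B (-0.27 ± 0.060, adjusted p = 0.00763). ZFAND2A, an arsenite-inducible proteasome-associated protein, rose in HPB-ALL by 0.44 ± 0.084 (adjusted p = 0.00665) and fell in KOPT-K1 by 0.38 (adjusted p = 0.00846). AKIRIN2, which brings proteasomes into the nucleus, also took opposite signs, at 0.30 ± 0.083 (adjusted p = 0.0412) in HPB-ALL and -0.31 ± 0.083 (adjusted p = 0.0212) in KOPT-K1. Its HPB-ALL call was lost in 7 of the 12 fits that left out 1 array (any HPB-ALL SAHM1 array, HPB-ALL DMSO array 1 or 2, KOPT-K1 SAHM1 array 2 or KOPT-K1 DMSO array 3; adjusted p up to 0.161), and its KOPT-K1 call in 3 (KOPT-K1 DMSO array 1 and SAHM1 arrays 2 and 3; adjusted p up to 0.0872). The core chaperone POMP differed by -0.017 in HPB-ALL and -0.061 in KOPT-K1 and was not called.

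Of 10 measured genes of the NFE2L1 route that controls proteasome genes, 1 rose and 1 fell in HPB-ALL, and none rose and 4 fell in KOPT-K1. The HPB-ALL shares were 10% higher and 10% lower, beside 4.96% and 4.38% of all genes. Those in KOPT-K1 were 0% and 40%, beside 5.85% and 13.2%. NFE2L1 itself differed by -0.19 ± 0.065 (adjusted p = 0.084) in HPB-ALL and -0.29 ± 0.065 (adjusted p = 0.00793) in KOPT-K1. NGLY1, which removes its glycans, rose in HPB-ALL (0.28 ± 0.072, adjusted p = 0.0281) and fell in KOPT-K1 (-0.38 ± 0.072, adjusted p = 0.0037). VCP, the segregase that extracts it from the membrane, fell in HPB-ALL (-0.31 ± 0.078, adjusted p = 0.0268), with -0.21 (adjusted p = 0.0763) in KOPT-K1. The related factor NFE2L2 and the ubiquitin ligase subunit FBXW7 fell in KOPT-K1, with differences of -0.31 ± 0.072 (adjusted p = 0.0101) and -0.29 ± 0.071 (adjusted p = 0.0128). Leaving out 1 array, the HPB-ALL calls of NGLY1 and VCP were each lost in 4 of 12 fits (adjusted p up to 0.111 and 0.124), for NGLY1 without HPB-ALL DMSO array 2 or 3 or SAHM1 array 1 or 2, and for VCP without HPB-ALL DMSO array 1 or 3 or SAHM1 array 2 or 3. The FBXW7 call was lost without KOPT-K1 DMSO array 1 (adjusted p = 0.056). Of the genes named here and among the partners, the 18S covariate left none of the 4 HPB-ALL calls, and the spike covariate none of the 9 KOPT-K1 calls.

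Of the 8 names that only share the start of the symbol, 2 rose in HPB-ALL and 2 fell in KOPT-K1. Each count is 25%, beside 4.96% of all genes higher in HPB-ALL and 13.2% lower in KOPT-K1. PSMA3-AS1, a noncoding transcript antisense to PSMA3, was at 0.29, 0.40 and 0.42 with SAHM1 and 0.073, -0.13 and 0.043 with DMSO in HPB-ALL. In KOPT-K1 it was at -0.37, -0.53 and -0.49 with SAHM1 and 0.047, 0.033 and -0.084 with DMSO. It rose in one line (0.38 ± 0.074, adjusted p = 0.00771) and fell in the other (-0.46 ± 0.074, adjusted p = 0.0014), while PSMA3 itself differed by 0.075 and 0.052 and was called in neither. PSMD6-AS2 rose in HPB-ALL (0.42 ± 0.087, adjusted p = 0.00998) and differed by -0.015 in KOPT-K1. PSMC3IP, a meiotic recombination cofactor named for its binding to PSMC3, differed by 0.14 in HPB-ALL and fell in KOPT-K1 (-0.31 ± 0.066, adjusted p = 0.00651). With the 18S level, PSMA3-AS1 was at 0.34 (adjusted p = 0.463) and PSMD6-AS2 at 0.50 (adjusted p = 0.269) in HPB-ALL. With the spike level, PSMA3-AS1 was at -0.29 (adjusted p = 0.0902) and PSMC3IP at -0.36 (adjusted p = 0.0616) in KOPT-K1. None of these calls was kept after quantile normalisation. The PSMD6-AS2 call was also lost without HPB-ALL SAHM1 array 2 (adjusted p = 0.0521). PSMB8-AS1, PSMD14-DT, PSMD7-DT, PSME3IP1 and PSMG3-AS1 were called in neither line.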

How the data were processed

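Total RNA from 12 samples was hybridised to Affymetrix U133 Plus 2.0 arrays with 54675 probe sets. The deposited values are ratios: the submitters' processing notes name RMA (version not given in the sources used here), and in every probe set the DMSO arrays of a line average 1 within 1e-06, so each value was divided by the DMSO mean of its own line. That step removes levels, so no filter on dim probe sets was possible, and the DMSO groups of the lines cannot be compared. Symbols came from GEO's platform annotation. Scan dates or batches were not used here.

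Log2 of the ratio was taken with no pseudocount. Probe sets with exactly 1 annotated symbol (41097; 1801 carried several and 11777 were not listed) were averaged per symbol, giving 19775 genes, and 41043 were matched by gene identifier with 0 symbols changed. limma 3.58.1 in R 4.3.3 (lmFit, eBayes, two-sided) was fitted to all genes and all 12 arrays with the 4 groups as terms (8 residual degrees of freedom), and p-values were adjusted by Benjamini-Hochberg over all genes, with a threshold of 0.05. The fit was tested on simulated data. No pair of arrays was identical. Array number, not depth, limits precision: 3 arrays against 3 give an exact permutation p no lower than 0.1, so single genes rest on the limma fit.

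The members and all lists were chosen with earlier results of these data known, so counts and medians over them describe and do not test. Named genes are the catalytic and PA28 subunits, up to 12 called members per line and up to 6 for the difference between lines by smallest p, the member with the largest change in each class and line, up to 4 called genes per context list and line, POMP, NFE2L1 and TAP1. Other genes named in the text to fill out a class were chosen after their values were seen. Replicate numbers are in the labels. Deviations of same-numbered SAHM1 and DMSO arrays from their group means correlated between -0.055 and 0.068, so the numbers were not taken as pairs. Alternatives tried were quantile normalisation, median centring, other choices of probe set, 18S and spike covariates, a single-line fit, a replicate block, robust eBayes, testing probe sets, and leaving out each array. Promoter windows came from RefSeq on GRCh38.p14, a build used for these sequences only.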

Additional observations from a re-analysis of the deposited data

Results flagged for a closer look

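These are the names for which the response of HPB-ALL differed from that of KOPT-K1 in limma's test of the difference itself. The value is the HPB-ALL log2 difference minus the KOPT-K1 log2 difference, so a negative value means a lower response in HPB-ALL.

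In the 20S core the values were -0.26 for PSMA4, -0.30 for PSMA5, -0.35 for PSMA7, -0.36 for PSMB1, -0.29 for PSMB2, -0.35 for PSMB4, -0.36 for PSMB5 and -0.28 for PSMB6. In the 19S cap they were -0.48 for PSMC3, -0.59 for PSMC4, -0.37 for PSMD2 and -0.32 for PSMD8. The ring chaperone PSMD10 was at -0.32 and the alpha-ring chaperone PSMG2 at 0.25. The activator subunit PSME1 was at -0.29 and the inhibitor PSMF1 at 0.45. Among the names that only share the start of the symbol, PSMA3-AS1 was at 0.84, PSMC3IP at 0.45 and PSMD6-AS2 at 0.43. PSMA4 and PSMG2 were called in none of the 12 fits that left out 1 array.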

How the results depend on the processing

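Counts below are proteasome genes called, of 42 unless given. Quantile normalisation left 1 in HPB-ALL, 0 in KOPT-K1, 1 for the mean of both lines and 0 for the difference between lines. Over all genes it left 138 higher and 279 lower in HPB-ALL (980 and 866 without it) and 25 higher and 111 lower in KOPT-K1 (1156 and 2605), and the KOPT-K1 median of PSME3, PSME4 and PSMF1 was then -0.19. With 18S as a covariate, the counts were 0 in HPB-ALL, 2 for the mean and 0 for the difference, and the HPB-ALL medians were -0.14 for the core, -0.083 for the immunoproteasome and -0.072 for PSME3, PSME4 and PSMF1. With the spike level they were 6 in HPB-ALL, 1 in KOPT-K1 and 0 for the difference. The medians were then -0.14 for the core and -0.063 for PSME3, PSME4 and PSMF1 in HPB-ALL, and 0.016 for all 42 genes, 0.17 for the core and -0.0054 for the cap in KOPT-K1. Leaving out the less specific probe sets (suffix _x_at or _s_at), 33 genes were measured, with 4 called in HPB-ALL, 3 for the mean and 5 for the difference. The HPB-ALL cap median was then -0.095, the KOPT-K1 assembly median 0.011, and PSMB2 reversed sign in the difference, to 0.0091. With the median of a gene's probe sets, the KOPT-K1 assembly median was 0.10 and the B2M difference reversed to -0.056. The cause of these changes was not tested. Testing probe sets gave 15 of 81 in KOPT-K1, beside 14.6% of all probe sets. With the replicate block the counts were 6 in HPB-ALL, 4 for the mean and 8 for the difference, and the 6 KOPT-K1 calls were kept. The labels do not say that the numbers pair the arrays. Median centring, robust eBayes and the median of a gene's probe sets kept all calls within the lines. Leaving out 1 array gave 5 to 10 calls in HPB-ALL, 5 to 7 in KOPT-K1, 4 to 5 for the mean and 8 to 13 for the difference. The medians then ran from -0.067 to 0.025 for PSME3, PSME4 and PSMF1 in HPB-ALL, and in KOPT-K1 from 0.016 to 0.057 for all 42 genes, 0.038 to 0.11 for the core and 0.040 to 0.074 for assembly factors. For single named genes, 1261 values under the settings other than leaving out 1 array kept their direction and side of the threshold. Of the rest under those settings, 249 lost their call, 4 gained one and 2 reversed. In the fits that left out 1 array, 2018 values kept both, 182 lost their call and 8 gained one.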

Other observations

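Of 16 measured genes of class I antigen presentation, the pathway that the immunoproteasome serves, 1 rose and 4 fell in HPB-ALL, and 2 rose and 3 fell in KOPT-K1. As shares, 6.25% rose and 25% fell in HPB-ALL, beside 4.96% and 4.38% of all genes. The KOPT-K1 shares were 12.5% and 18.8%, beside 5.85% and 13.2%. HLA-B, a class I heavy chain, fell in HPB-ALL (-0.40 ± 0.075, adjusted p = 0.00586) and rose in KOPT-K1 (0.39 ± 0.075, adjusted p = 0.00386). HLA-C was at -0.24 ± 0.066 (adjusted p = 0.038) in HPB-ALL and 0.32 ± 0.066 (adjusted p = 0.00584) in KOPT-K1, and its HPB-ALL call was lost in 8 of the 12 fits that left out 1 array (any SAHM1 array or DMSO array 2 or 3 of HPB-ALL, or any DMSO array of KOPT-K1; adjusted p up to 0.168). The heavy chains are near-identical in sequence, so probe sets may share signal between them. B2M, the light chain, rose in HPB-ALL by 0.34 ± 0.087 (adjusted p = 0.027) and was at -0.069 in KOPT-K1. Its HPB-ALL call was lost in 5 such fits (any SAHM1 array or DMSO array 2 or 3 of HPB-ALL; adjusted p up to 0.112), and with the median over its probe sets in place of the mean the value was 0.013 (adjusted p = 0.937). TAPBPL, a peptide editor, fell in both, by 0.51 and 0.33 on the log2 scale, and its KOPT-K1 call was lost without KOPT-K1 DMSO array 1 or SAHM1 array 2 (adjusted p up to 0.0611). The peptide transporter subunit TAP1 was at -0.031 in HPB-ALL and 0.20 in KOPT-K1 and was not called, and the interferon-responsive factor IRF1 fell in HPB-ALL by 0.43 on the log2 scale.

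Of 7 measured genes of ubiquitin and its activation, 1 rose in each line and none fell. That is 14.3% higher in each line, beside 4.96% of all genes in HPB-ALL and 5.85% in KOPT-K1. The mitotic ubiquitin-conjugating enzyme UBE2C rose in HPB-ALL (0.37 ± 0.056, adjusted p = 0.0016), and UBE2S rose in KOPT-K1 (0.26 ± 0.061, adjusted p = 0.0118). Of the calls named here and in the paragraph above, the 18S covariate left none in HPB-ALL, and the spike covariate none in KOPT-K1.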
